A study of Mus musculus with 6 samples.

Results

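The 10 genes described here encode nuclear factors that act on the mitochondrial genome. Tfam, Tfb2m, Polrmt and Tefm serve its transcription, Tfb1m modifies its small ribosomal RNA, Lrpprc, Slirp and Pnpt1 act on its transcripts, and Twnk and Polg copy the DNA itself. They were chosen by name, as factors that could underlie altered levels of mitochondrial transcripts, with earlier results of these data known, and no measured value enters the rule. All 10 were found among the 78298 genes of the count table, and all 10 passed the filter on low counts, which kept 15522 genes.

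RENCA is an established cell line from a mouse renal adenocarcinoma. Its cells received a lentivirus carrying mouse Aqp1 (oe-AQP1), a water channel gene, or the corresponding negative control lentivirus (oe-NC). In both groups, puromycin at 2 μg/mL was applied for 14 days from 48 h after transduction, so both are selected pools of transduced cells and no untransduced RENCA cells were compared. Each group had 3 samples. The labels place all 6 samples in 1 batch and do not say whether the 3 samples of a group came from separate cultures, so the p-values measure the spread between these samples, which may be technical.

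The summed expected counts were between 18385714 and 21920899 per sample. Aqp1 was counted 7713, 8545 and 7838 times in oe-AQP1 samples 1 to 3, against 41, 25 and 45 in oe-NC samples 1 to 3, which gave a log2 fold change of 7.70 (SE 0.16, limma-voom FDR = 1.34e-10). oe-NC sample 1 stood apart from the other control samples. The chi-square per gene was 9.75 and 11.3 for its pairs with oe-NC samples 2 and 3, against 1.74 to 2.06 for the other pairs within a group. For most of the 10 genes and for some other results, the value without this sample is given as well. Of 13 markers of renal epithelium, 10 were detected well enough to be tested, Pax8, Pax2, Krt8, Krt18 and Cdh16 among them. By mean level, 4 of the 13 were under 1 CPM (counts scaled to a common library size with TMM factors), with Epcam and Havcr1 at 0 in every sample. The summed level of the 13 was 852 to 884 CPM in oe-AQP1 and 1042 to 1154 CPM in oe-NC. Of the 10 tested, 6 passed the test as lower, against 16.6% of all genes tested. The 5 lymphocyte markers were each under 1 CPM, the 4 endothelial markers summed to at most 1.73 CPM, and the 4 fibroblast markers summed to 56.0 to 58.0 CPM in oe-AQP1 and 51.04 to 65.0 CPM in oe-NC, with Pdgfra and Dcn at 1 count or fewer, Pdgfrb higher (0.34) and Col1a1 lower (-0.73). The macrophage markers summed to 59.0 to 62.2 CPM in oe-AQP1 and 69.3 to 71.3 CPM in oe-NC, with Adgre1 at 0 and 3 of the 7 under 1 CPM, and 2 of the 4 tested fell, Csf1r (-1.51) and Lyz2 (-0.52). The part of these markers in the results that follow was not tested. In bulk RNA, fewer cells of a type and less RNA per cell cannot be told apart.

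As background, mammalian mitochondrial DNA is a small circle that is transcribed from both strands into long precursors. The RNA polymerase POLRMT starts at its promoters together with TFAM, which bends and packages the DNA, and TFB2M, which opens the promoter, and TEFM then keeps the polymerase on the template. The precursors are cut at the tRNAs that punctuate them, after which the LRPPRC-SLIRP complex protects the messenger RNAs and a complex of PNPase (Pnpt1) and the helicase SUV3 (Supv3l1) degrades RNA. These proteins are all encoded in the nucleus and imported. Renal tubular cells are rich in mitochondria.

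The regions ahead of the start sites of 4 of these genes are shown first. Pnpt1 is the gene that moved most, Slirp and Lrpprc are partners that moved in opposite directions, and Tfam is the factor with which transcription starts. The sequences are RefSeq's, from windows of 250 bases before to 50 bases after each start, in a table built on GRCm38.p6. All 10 genes matched this table, with 11 windows because Twnk has 2 starts. Each window was found once on its own chromosome and strand in GRCm39, whose coordinates are given. Other chromosomes were not searched. The 250 bases before the RefSeq start are printed 5′ to 3′ on the gene's strand. In the GENCODE M39 annotation, which gives the gene positions below, these 4 genes begin further upstream. Part of each printed stretch therefore lies within the gene. In Tfam, which begins at chr10:71074110, this is most of the stretch. Capitals mark CCGGAAG, the ETS site bound by GABP (NRF-2), on either strand, AAGATGG, the YY1 core, on either strand, and AANNGAAA, the core of sites for interferon regulatory factors (IRF). Pnpt1 lies at chr11:29080494-29080743 on the forward strand, Slirp at chr12:87490416-87490665 on the forward strand, Tfam at chr10:71073875-71074124 on the reverse strand and Lrpprc at chr17:85098215-85098464 on the reverse strand.
Pnpt1: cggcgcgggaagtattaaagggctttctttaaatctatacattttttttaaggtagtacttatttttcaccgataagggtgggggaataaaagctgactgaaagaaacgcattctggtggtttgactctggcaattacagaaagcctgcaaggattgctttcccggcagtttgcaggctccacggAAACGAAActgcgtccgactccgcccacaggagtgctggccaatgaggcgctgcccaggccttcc
Slirp: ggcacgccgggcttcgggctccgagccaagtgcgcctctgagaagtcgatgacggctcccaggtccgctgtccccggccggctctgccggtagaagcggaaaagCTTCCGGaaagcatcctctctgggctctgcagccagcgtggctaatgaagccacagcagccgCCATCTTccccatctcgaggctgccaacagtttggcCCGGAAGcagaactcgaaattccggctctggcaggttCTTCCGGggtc
Tfam: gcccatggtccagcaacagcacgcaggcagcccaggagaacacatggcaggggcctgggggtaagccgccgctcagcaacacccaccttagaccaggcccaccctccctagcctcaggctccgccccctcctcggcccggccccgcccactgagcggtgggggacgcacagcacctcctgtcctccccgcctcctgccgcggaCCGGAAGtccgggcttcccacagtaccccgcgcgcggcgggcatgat
Lrpprc: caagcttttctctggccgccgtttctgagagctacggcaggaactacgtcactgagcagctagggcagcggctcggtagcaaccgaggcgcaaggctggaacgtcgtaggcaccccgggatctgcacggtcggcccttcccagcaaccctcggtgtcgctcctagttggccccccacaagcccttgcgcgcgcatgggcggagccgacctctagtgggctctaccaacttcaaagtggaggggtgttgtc

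The ETS/GABP motif CCGGAAG was present in the windows of 6 of the 10 genes (Polg, Polrmt, Slirp, Tefm, Tfam and Twnk), against 9.93% of all genes in the table. In Slirp it occurred 3 times, and in Tfam once, from -47 to -41 relative to the RefSeq start. The 6 genes with the motif include 3 that rose, 1 that fell and 2 that did not pass the test. The palindromic motif of NRF-1 was in the window of Polrmt alone (5.19% of all genes), as 2 overlapping matches, and the YY1 core AAGATGG was in that of Slirp alone (7.28%). The E-box CACGTG (8.09%) was in none. The interferon-stimulated response element (ISRE) was also in none of the 10, against 3.99% of all genes and 9 of 16 interferon response genes with a window. The shorter IRF core AANNGAAA was searched after the Pnpt1 window had been read. It was in the windows of Pnpt1, Slirp and Twnk, in 26.7% of all genes and in 12 of the 16 interferon genes. In Pnpt1 it ran from -65 to -58, and in Slirp it lay after the start, from 13 to 20, and is not in the printed stretch. Both strands were searched for each motif. A match describes these letters and is not a measured site.

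Of the 10 genes, 4 rose in oe-AQP1 (Pnpt1, Slirp, Tefm and Tfam), 2 fell (Lrpprc and Polg) and 4 did not pass the test (Tfb1m, Twnk, Polrmt and Tfb2m). "Rose" and "fell" here mean a limma-voom adjusted p (FDR) under 0.05 over all 15522 genes. By the same rule 32.5% of all genes tested were called, 16% as higher and 16.6% as lower. Among the 8850 genes with a mean count at least as high as that of Tfb1m, the lowest of the 10, 41.2% were called. The 6 calls among 10 are to be read against these shares. Only Pnpt1 also had an absolute log2 fold change above 1, a size reached by 5.23% of all genes tested in either direction and by 4.39% as an increase. The median log2 fold change of the 10 was 0.12, against 0.00 over all genes. In 8 of the 10 the CPM values of the groups did not overlap, compared with 47.3% of all genes. The exceptions were Tfb1m and Polrmt.

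**Figure D1:**
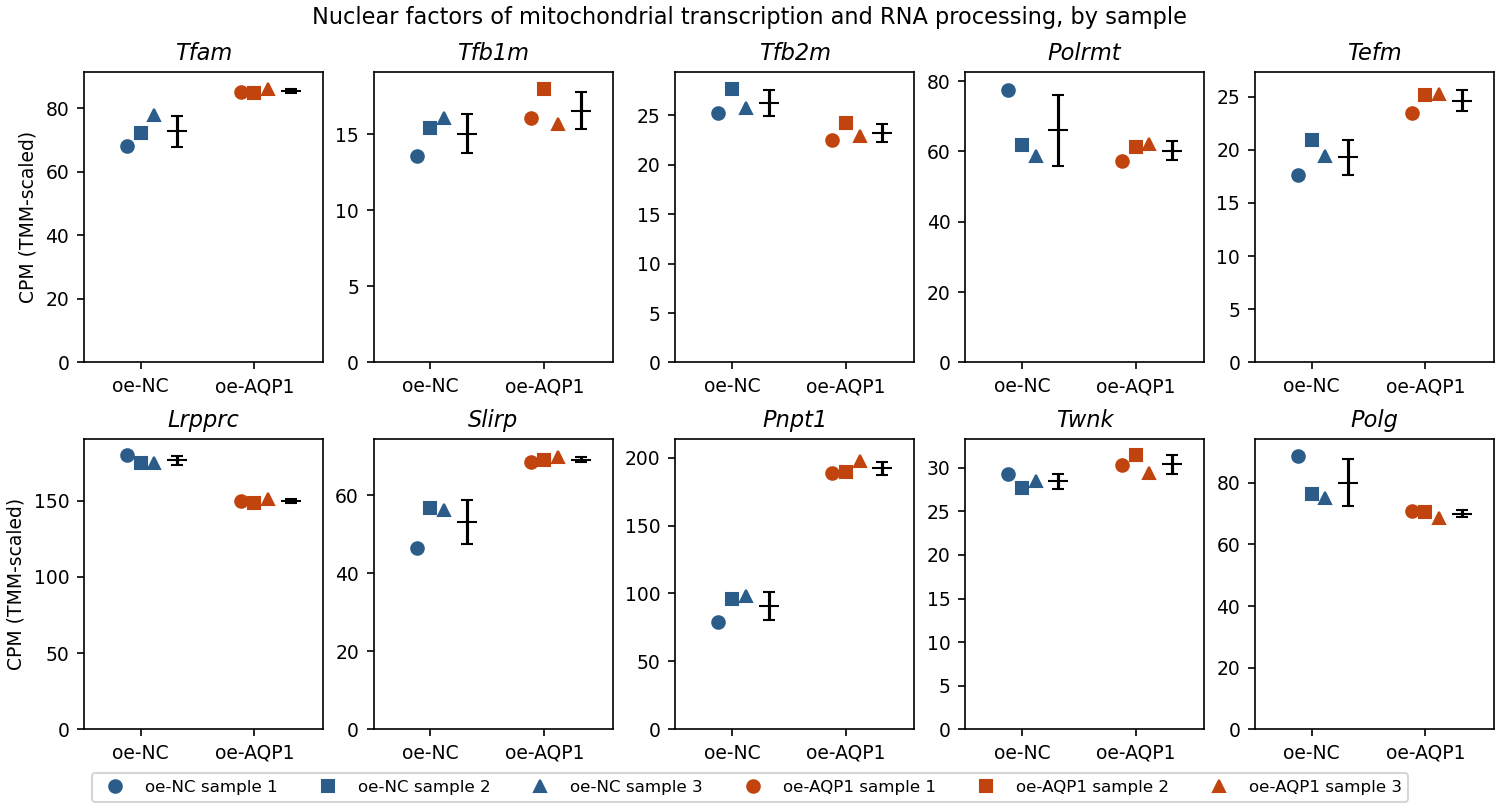
Level of each of the 10 genes in each sample, in TMM-scaled CPM on axes that start at 0, with oe-NC in blue and oe-AQP1 in orange; the bars beside the points are the mean and SD of 3 samples. Pnpt1 stands between 189 and 198 CPM in oe-AQP1 and between 79.2 and 97.9 CPM in oe-NC, while Polrmt overlaps because oe-NC sample 1 (77.5 CPM) lies above all other samples.

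**Figure D2:**
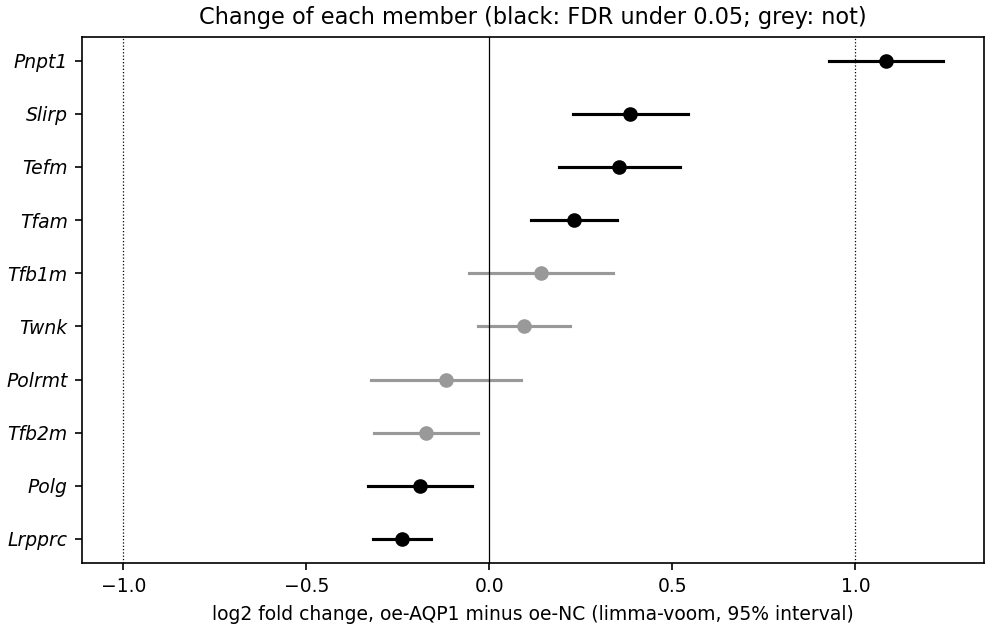
Log2 fold change of each gene, oe-AQP1 minus oe-NC, with its 95% interval from limma-voom; black points passed FDR 0.05 and grey points did not, and dotted lines mark a log2 fold change of 1 in either direction. Pnpt1 lies at 1.08 and the other 9 genes between -0.24 and 0.39.

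Pnpt1 encodes polynucleotide phosphorylase, an exoribonuclease of the mitochondrial degradosome that is also known as a gene induced by type I interferon. The gene (ENSMUSG00000020464) spans chr11:29080723-29112528 on the forward strand of GRCm39. It had 3737, 4171 and 4062 counts in oe-AQP1 samples 1 to 3 and 1554, 1754 and 2086 in oe-NC samples 1 to 3. In CPM these were 189, 190 and 198 against 79.2, 96.0 and 97.9. Every oe-AQP1 sample was far above every oe-NC sample, and oe-NC sample 1 was the lowest. The mean was 192 ± 4.76 CPM in oe-AQP1 and 91.0 ± 10.3 CPM in oe-NC (SD, n = 3 each), a log2 fold change of 1.08 (SE 0.07, 95% interval 0.93 to 1.24, limma-voom FDR = 1.35e-06). Without oe-NC sample 1 the log2 fold change was 0.99 (limma-voom FDR = 4.82e-15), just under the threshold of 1.

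The 23 interferon response genes listed for comparison, which encode antiviral effectors and the factors that switch them on, all rose in the same samples, with a median log2 fold change of 1.96 and a range of 0.68 to 5.91. Their summed level was 14430 to 14450 CPM in oe-AQP1 and 3173 to 3207 CPM in oe-NC. Mx1, an antiviral GTPase, had the highest log2 fold change (5.91, limma-voom FDR = 6.77e-12), followed by Ifnb1 (interferon beta) at 5.72 and Ifit3 at 4.86. Irf9, a subunit of the transcription factor complex ISGF3, had the lowest, at 0.68, and the RNA-editing enzyme Adar (1.03) and the 2′-5′ oligoadenylate synthetase gene Oas2 (1.11) were next. The change of Pnpt1 lay between those of Adar and Oas2. The part of the interferon response in the Pnpt1 difference was not tested. Supv3l1, the helicase that works with PNPase, had 56.6, 53.0 and 51.8 CPM in oe-AQP1 and 58.2, 54.2 and 55.2 CPM in oe-NC, which overlapped (log2 fold change -0.05, limma-voom FDR = 0.463).

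Slirp and Lrpprc encode the partners of an RNA-binding complex that stabilises mitochondrial messenger RNAs, and their own transcripts moved in opposite directions. Slirp (ENSMUSG00000021040, chr12:87490572-87506290, forward strand) stood at 68.6, 69.2 and 69.7 CPM in oe-AQP1 and at 46.6, 56.8 and 56.2 CPM in oe-NC. The oe-AQP1 samples lay close together and above the controls, of which sample 1 was again the lowest. The means were 69.2 ± 0.557 and 53.2 ± 5.70 CPM (SD, n = 3 each), and the log2 fold change was 0.39 (SE 0.07, 95% interval 0.23 to 0.54, limma-voom FDR = 0.00215). Without oe-NC sample 1 it was 0.29 (limma-voom FDR = 5.7e-06).

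Lrpprc (ENSMUSG00000024120, chr17:85012670-85098279, reverse strand) stood at 150, 148 and 151 CPM in oe-AQP1 and at 180, 175 and 175 CPM in oe-NC. The groups were apart by more than the range within either. The means were 150 ± 1.499 and 176 ± 2.82 CPM (SD, n = 3 each), the log2 fold change was -0.24 (SE 0.04, 95% interval -0.32 to -0.16, limma-voom FDR = 6.24e-04), and without oe-NC sample 1 it was -0.23. Among the 10 genes this was the smallest standard error.

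The balance of the pair was also computed within each sample, per length of transcript, as TPM (counts over the combined exon length of each gene, scaled to the same total in each sample). The log2 ratio of Slirp to Lrpprc was -0.03, 0.00 and -0.02 in oe-AQP1 and -0.85, -0.52 and -0.54 in oe-NC. The transcripts were thus at near equal TPM in oe-AQP1, while Slirp was below Lrpprc in each oe-NC sample. The difference of 0.62 in log2 ratio was 0.52 without oe-NC sample 1. Its exact two-sided permutation p was 0.1, the smallest that 3 samples against 3 can give, so this test could not pass 0.05 for any such ratio. With the length of the canonical transcript in place of the combined exons, an alternative chosen after the data had been seen, the mean TPM was 57.9 for Slirp and 74.7 for Lrpprc in oe-AQP1. Equality of the levels in oe-AQP1 therefore depends on the length used, whereas the difference between the groups in the ratio does not, since the lengths cancel in it.

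Slirp shares 3050 exon bases with Snw1 on the opposite strand, and the libraries are not stated to keep strand, so reads from these bases cannot be assigned to either gene. Snw1, a splicing cofactor, also rose, by a log2 fold change of 0.12 (limma-voom FDR = 0.033). On its other side Slirp starts 215 bases from Alkbh1, which runs in the opposite direction and shares 216 exon bases with it. Alkbh1, a dioxygenase that modifies a mitochondrial tRNA, had 62.8, 59.4 and 56.9 CPM in oe-AQP1 and 35.9, 39.6 and 38.8 CPM in oe-NC, a log2 fold change of 0.65 (SE 0.06, limma-voom FDR = 1.87e-05). Both genes of this divergent pair were higher in oe-AQP1. The part of shared reads in these differences was not tested. Lrpprc shares no exon bases with another gene and had whole counts in every sample.

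Of the factors of transcription itself, Tefm and Tfam rose, while the polymerase and the promoter-opening factor did not pass the test. Tefm, the elongation factor (ENSMUSG00000046909, chr11:80027498-80033839, reverse strand), stood at 23.5, 25.1 and 25.2 CPM in oe-AQP1 and at 17.6, 20.9 and 19.4 CPM in oe-NC. All 3 oe-AQP1 samples were above all controls, with a log2 fold change of 0.36 (SE 0.07, 95% interval 0.19 to 0.52, limma-voom FDR = 0.00475). It was 0.29 without oe-NC sample 1 (limma-voom FDR = 0.00185).

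Tfam, the high-mobility-group protein that coats mitochondrial DNA and starts its transcription (ENSMUSG00000003923, chr10:71061287-71074110, reverse strand), stood at 85.0, 84.9 and 86.1 CPM in oe-AQP1 and at 68.0, 72.3 and 77.8 CPM in oe-NC. The groups did not overlap, and the controls were spread over a wider range than the oe-AQP1 samples. The means of 85.3 ± 0.652 and 72.7 ± 4.92 CPM (SD, n = 3 each) gave a log2 fold change of 0.23 (SE 0.05, 95% interval 0.11 to 0.35, limma-voom FDR = 0.00745), and 0.18 without oe-NC sample 1 (limma-voom FDR = 8.2e-04).

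Polrmt, the mitochondrial RNA polymerase (ENSMUSG00000020329, chr10:79571957-79582420, reverse strand), stood at 57.3, 61.4 and 62.1 CPM in oe-AQP1 and at 77.5, 61.7 and 58.6 CPM in oe-NC. Samples 2 and 3 of oe-NC lay within or beside the oe-AQP1 range, and sample 1 was the highest of all 6. The log2 fold change was -0.12 (95% interval -0.32 to 0.09, limma-voom FDR = 0.359), and without oe-NC sample 1 its sign turned and it was 0.0045 (limma-voom FDR = 0.951).

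Tfb2m, which melts the promoter (ENSMUSG00000026492, chr1:179355610-179374548, reverse strand), stood at 22.5, 24.2 and 22.9 CPM in oe-AQP1 and at 25.2, 27.7 and 25.8 CPM in oe-NC. The groups did not overlap, but the gene did not pass (log2 fold change -0.17, 95% interval -0.31 to -0.03, limma-voom FDR = 0.0615). It passed without oe-NC sample 1 (-0.20, limma-voom FDR = 0.0178) and with sample quality weights (limma-voom FDR = 0.015).

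Tfb1m is the paralog of Tfb2m that dimethylates the 12S ribosomal RNA (ENSMUSG00000036983, chr17:3563847-3608190, reverse strand). It stood at 16.1, 17.96 and 15.7 CPM in oe-AQP1 and at 13.6, 15.4 and 16.1 CPM in oe-NC, which overlapped (log2 fold change 0.14, 95% interval -0.06 to 0.34, limma-voom FDR = 0.254). Without oe-NC sample 1, the lowest of the 6, the log2 fold change was 0.07 (limma-voom FDR = 0.537).

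The ratios between partners in this pathway were taken within samples as log2 ratios of TPM, 6 in all with Slirp to Lrpprc. In each, the gene with the higher log2 fold change stands over the one with the lower. The ratios thus restate the changes of the single genes. None of their groups overlapped, where 47.3% of single genes did not overlap, and no such share was computed for ratios of other genes. Tfam to Polrmt was 0.57, 0.46 and 0.47 in oe-AQP1 and -0.19, 0.23 and 0.40 in oe-NC, a difference of 0.35 that fell to 0.18 without oe-NC sample 1. Tefm to Polrmt was -1.43, -1.43 and -1.44 against -2.28, -1.70 and -1.74, a difference of 0.47 that fell to 0.29 without this sample. Both ratios thus rest in part on the high Polrmt value of 1 control. Tfb1m to Tfb2m was -1.29, -1.23 and -1.35 against -1.70, -1.65 and -1.48, a difference of 0.32 and of 0.27 without this sample. Pnpt1 to Supv3l1 differed by 1.14 and by 1.01 without it. Each of the 6 ratios had an exact permutation p of 0.1, also after adjustment over the 6.

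Of the replication factors, Polg, the catalytic subunit of the mitochondrial DNA polymerase, fell and Twnk, the helicase that unwinds the DNA ahead of it, did not pass. Polg (ENSMUSG00000039176, chr7:79095974-79116110, reverse strand) stood at 70.9, 70.6 and 68.6 CPM in oe-AQP1 and at 88.7, 76.5 and 75.1 CPM in oe-NC. The groups did not overlap, and oe-NC sample 1 was the highest. The log2 fold change was -0.19 (SE 0.06, 95% interval -0.33 to -0.05, limma-voom FDR = 0.0436) and -0.11 without oe-NC sample 1 (limma-voom FDR = 0.0187). The call did not hold without oe-AQP1 sample 1, 2 or 3 (limma-voom FDR = 0.0988, 0.11 and 0.142).

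Twnk (ENSMUSG00000025209, chr19:44994102-45001204, forward strand) stood at 30.3, 31.5 and 29.4 CPM in oe-AQP1 and at 29.3, 27.6 and 28.5 CPM in oe-NC. The lowest oe-AQP1 sample and the highest oe-NC sample differed by less than 0.1 CPM, and the log2 fold change of 0.09 (95% interval -0.03 to 0.22, limma-voom FDR = 0.237) did not pass. The log2 TPM ratio of Twnk to Polg was 0.17, 0.24 and 0.17 in oe-AQP1 and -0.20, -0.07 and 0.00 in oe-NC. The difference of 0.28 fell to 0.23 without oe-NC sample 1.

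Several of these loci share exon bases with a gene on the opposite strand. Tfb1m shares 3107 bases with Tiam2, Twnk 1264 with Mrpl43, Polg 1064 with Fanci and Tfb2m 531 with Cnst. None of these 4 neighbours passed the test (limma-voom FDR = 0.877, 0.937, 0.494 and 0.646), and their log2 fold changes lay between -0.05 and 0.06. Tfb1m also shares 369 exon bases with the long non-coding gene 1700102H20Rik, whose log2 fold change was -0.38 (limma-voom FDR = 0.0691). Pnpt1 and Tefm overlap long non-coding genes over 356 and 88 exon bases, and these had too few counts to be tested. Tfam and Polrmt overlap no other gene. Expected counts were whole in all 6 samples for Tfam, Polrmt, Tefm and Lrpprc, and not for the other 6 genes.

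In TPM over combined exon lengths, the oe-NC samples had Tfam first at 59.9 ± 2.68 and Lrpprc next at 56.1 ± 2.39. Polrmt at 54.7 ± 9.93 and Pnpt1 at 54.2 ± 4.79 came after them (SD, n = 3). The ranges of neighbours in this order overlapped, and that of Polrmt (47.5 to 66.0 TPM) overlapped all of the other 3, while Tfam (57.8 to 62.9 TPM) was above Pnpt1 (48.7 to 57.3 TPM) in every sample. Slirp followed at 36.1 ± 3.01, then Polg at 27.1 ± 3.29 and Twnk at 25.4 ± 1.37, which overlapped each other, Tfb2m at 17.7 ± 0.735, Tefm at 14.5 ± 0.962 and Tfb1m at 5.81 ± 0.353.

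In oe-AQP1 the order was led by Pnpt1 at 119 ± 3.37 TPM (SD, n = 3), clear of Tfam at 73.1 ± 0.806. Polrmt (51.7 ± 2.47), Lrpprc (49.4 ± 0.591) and Slirp (48.9 ± 0.609) came next with overlapping ranges, so that Slirp, well below Lrpprc in oe-NC, was level with it. Twnk (28.2 ± 0.995), Polg (24.6 ± 0.363), Tefm (19.2 ± 0.850) and Tfb2m (16.3 ± 0.655) followed. Tfb1m was last at 6.66 ± 0.496. With canonical transcript lengths Lrpprc led in oe-NC (86.5 TPM), while Pnpt1 was again first in oe-AQP1 (131 TPM) and Tfb1m last in both groups. Tfam moved to rank 5 in oe-NC (40.0 TPM), below Pnpt1 (60.8 TPM) and Slirp (43.6 TPM). In oe-AQP1 it moved to rank 4 (47.8 TPM), below Lrpprc (74.7 TPM) and Slirp (57.9 TPM). The order of Twnk, Polg and Tefm in oe-AQP1, and of Twnk, Tfb2m and Tefm in oe-NC, turned as well. Most of the order thus depends on the length used and is not resolved.

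The RNAs on which these factors act were read from the same samples. The 13 protein genes of the mitochondrial chromosome made up 1.59%, 1.59% and 1.63% of all counts in oe-AQP1 and 2.34%, 2.95% and 2.97% in oe-NC. The share was lower in every oe-AQP1 sample, by 1.15 percentage points on average (exact permutation p = 0.1) and by 1.36 without oe-NC sample 1. Of the 13 genes, 10 fell and none rose by limma-voom, nor by edgeR or DESeq2 or at an unadjusted p under 0.05, and the median log2 fold change was -1.01. The decrease was uneven along the chromosome. mt-Nd1, a subunit of complex I, stood at 544, 551 and 560 CPM in oe-AQP1 and at 1486, 1843 and 1843 CPM in oe-NC, a log2 fold change of -1.64 (SE 0.08, limma-voom FDR = 9.47e-08).

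mt-Nd4l and mt-Atp8, which encode small subunits of complex I and of ATP synthase, had log2 fold changes of -1.56 and -1.36. The least lowered of the 10 were mt-Nd6, the only protein gene on the light strand, at -0.48 (limma-voom FDR = 0.0106), mt-Co1, a core subunit of cytochrome c oxidase, at -0.52, and mt-Nd5 at -0.77. Without oe-NC sample 1 the log2 fold changes were -1.80 (mt-Nd4l), -1.43 (mt-Atp8), -0.65 (mt-Nd6), -0.62 (mt-Co1) and -0.93 (mt-Nd5). The genes that did not pass were mt-Atp6 (-0.73, limma-voom FDR = 0.0563), mt-Co2 (-0.20, limma-voom FDR = 0.359) and mt-Co3 (0.08, limma-voom FDR = 0.907). mt-Atp6 stood at 267, 234 and 252 CPM in oe-AQP1 and at 241, 555 and 537 CPM in oe-NC, where sample 1 lay within the oe-AQP1 range. It passed as the 11th lower gene without oe-NC sample 1 (log2 fold change -1.12, limma-voom FDR = 4.76e-16), by edgeR (FDR = 0.025) and with sample quality weights (limma-voom FDR = 4.46e-06). mt-Atp6 also passed with no filter on low counts (limma-voom FDR = 0.039) and with the replicate number as a block (limma-voom FDR = 0.0147). mt-Co2 passed without oe-AQP1 sample 2 (-0.44, limma-voom FDR = 0.00168). mt-Co3 ranged from 80.2 to 264 CPM within oe-AQP1 and from 85.1 to 216 CPM within oe-NC, so samples of 1 group differed more than the groups did.

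The ribosomal RNAs of the same chromosome went the other way. mt-Rnr1, the 12S ribosomal RNA that TFB1M methylates, stood at 1085, 1059 and 1140 CPM in oe-AQP1 and at 108, 135 and 140 CPM in oe-NC, a log2 fold change of 3.11 (SE 0.08, limma-voom FDR = 6.14e-10). mt-Rnr2, the 16S ribosomal RNA, stood at 164, 171 and 176 CPM against 126, 147 and 153 CPM, a log2 fold change of 0.27 (limma-voom FDR = 0.0108), and its call did not hold without oe-AQP1 sample 3. Both are transcribed ahead of mt-Nd1 on the heavy strand. Reads of mitochondrial genes can also match copies in the nuclear genome, and these values carry that uncertainty. The paper does not state how RNA was selected for the libraries. The part of that selection in the ribosomal RNA values was not tested. Of the 10 nuclear factors, those other than Pnpt1 had log2 fold changes between -0.24 and 0.39. The part of the 10 factors in the changes of the mitochondrial RNAs was not tested.

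**Figure D3:**
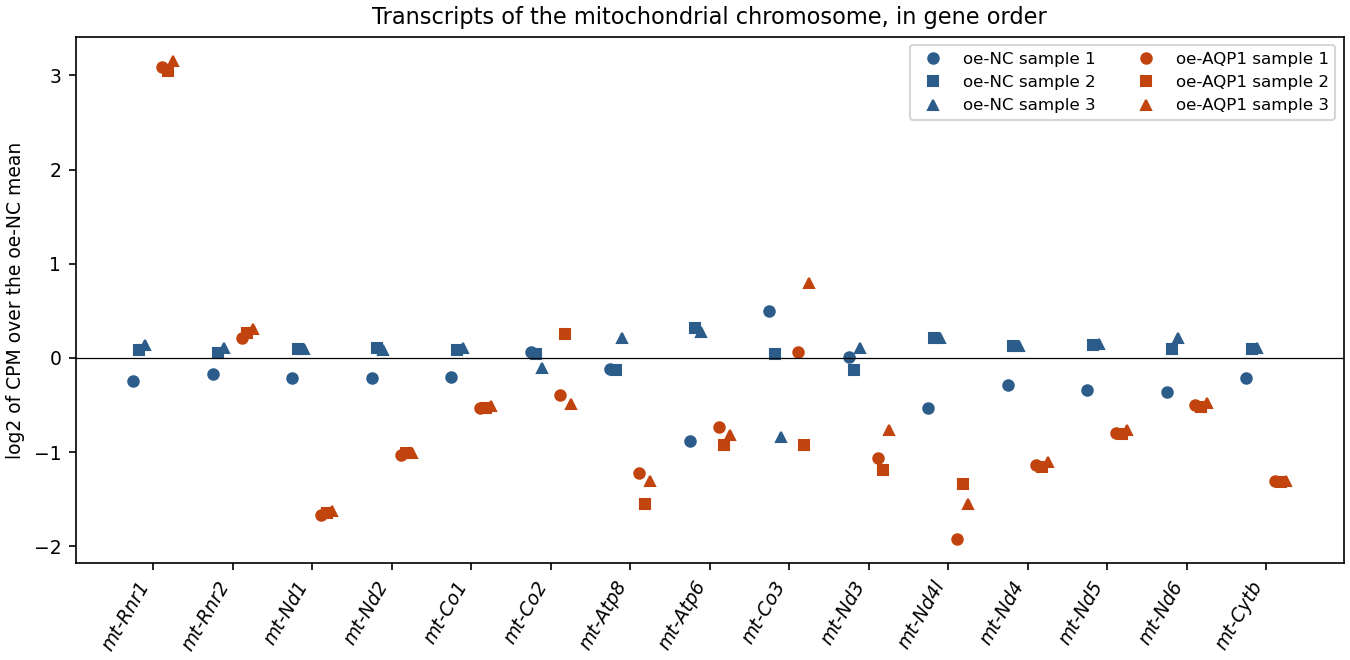
Log2 of the CPM in each sample over the oe-NC mean for the 2 ribosomal RNA and 13 protein genes of the mitochondrial chromosome, drawn in their order along it, with oe-NC in blue and oe-AQP1 in orange. mt-Rnr1 lies about 3 log2 units above the controls in each oe-AQP1 sample, mt-Nd1 lies lowest among genes with closely placed samples, and mt-Co3 is scattered in both groups.

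Other genes of the pathway were read from lists. Among 20 further genes of mitochondrial RNA cleavage, polyadenylation, stability and decay, 3 rose, 3 fell and 14 did not pass, with a median log2 fold change of -0.01. Both counts are near the background of 16% higher and 16.6% lower over all genes, so the list as a whole does not stand apart by its calls. Genes whose products cut tRNA ends out of the precursors moved in both directions. Trmt10c, a subunit of mitochondrial RNase P, stood at 55.9, 61.3 and 59.5 CPM in oe-AQP1 and at 41.2, 46.5 and 41.5 CPM in oe-NC (log2 fold change 0.46, SE 0.06, limma-voom FDR = 3.06e-04). Hsd17b10, another subunit of RNase P, stood at 89.6, 86.4 and 90.5 CPM against 100, 108 and 108 CPM (log2 fold change -0.24, limma-voom FDR = 0.00249). Elac2, which cuts the 3′ ends of tRNAs, fell by 0.18 on the log2 scale.

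Ptcd1 (0.38), which acts on leucine tRNAs, and Fastkd5 (0.34), which acts on precursors not flanked by tRNAs, were the other genes of this list that rose, and Fastk (-0.18) was the other that fell. Mtpap, the mitochondrial poly(A) polymerase, had a log2 fold change of 0.19 and did not pass (limma-voom FDR = 0.0666). With sample quality weights, and without oe-NC sample 1, 5 genes of the list fell, and without oe-NC sample 3, 5 rose.

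Of 25 tested genes of mitochondrial RNA modification, 8 rose and 1 fell, with a median of 0.11. Alkbh1 (0.65), the neighbour of Slirp, rose most, followed by Mrm2 (0.39), a methyltransferase of the 16S ribosomal RNA, and Trit1 (0.36), a tRNA isopentenyltransferase. Trmt1, a tRNA methyltransferase, fell by 0.19 on the log2 scale, a call that did not hold without oe-AQP1 sample 2 or 3. Without oe-AQP1 sample 2, 5 genes rose. The share of 8 in 25 compares with 16% of all genes called higher.

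None of the 6 other transcription genes (Mterf1a, Mterf1b, Mterf2, Mterf3, Mterf4 and Mrpl12) passed by limma-voom, nor by edgeR or DESeq2, and none had an unadjusted p under 0.05. Their log2 fold changes were 0.07 to 0.35, and 1 of them rose without oe-NC sample 1. Mterf1a and Mterf1b are near-identical copies and their reads may be shared. Of 17 further genes of mitochondrial DNA replication and the nucleoid, 4 rose and none fell by limma-voom, with 1 lower gene at an unadjusted p under 0.05, none lower by edgeR or DESeq2, and a median of 0.05. Over all genes 16% were called higher and 16.6% lower. The 4 of this list that rose include Polg2, the accessory subunit of the polymerase (0.34, limma-voom FDR = 0.021), and Top3a, a topoisomerase (0.26). Rnaseh1, which removes RNA from primers (0.17), and Fen1, a flap endonuclease (0.15), were the others. Polg2 thus rose where Polg, whose product it binds, fell. These calls were weak. None held by DESeq2, without a filter on low counts, without oe-AQP1 sample 2 or without oe-NC sample 2, when 0 genes of the list were called.

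Among 13 tested nuclear regulators of such factors, 5 rose and 2 fell, with a median of 0.15, where 16% and 16.6% of all genes were called higher and lower. Ppargc1a, the coactivator PGC-1α, stood at 21.95, 21.9 and 24.1 CPM in oe-AQP1 and at 14.9, 16.9 and 16.0 CPM in oe-NC (log2 fold change 0.51, SE 0.07, limma-voom FDR = 5.48e-04). Perm1, a regulator induced by PGC-1 coactivators, had the highest log2 fold change (0.76, SE 0.15), and Gabpb1, a subunit of the ETS factor GABP, followed at 0.47. Myc (0.30) and Pprc1 (0.25) also rose. Gabpb2, the alternative subunit, fell by 0.21 on the log2 scale and Tfeb by 0.29. Gabpa, which carries the DNA-binding domain of GABP, and Nrf1 did not pass (log2 fold changes -0.09 and -0.15, limma-voom FDR = 0.169 and 0.119). The number that fell was 1 when any 1 of the oe-AQP1 samples was left out, and 4 without oe-NC sample 1, without oe-NC sample 3 or with sample quality weights.

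**Figure D4:**
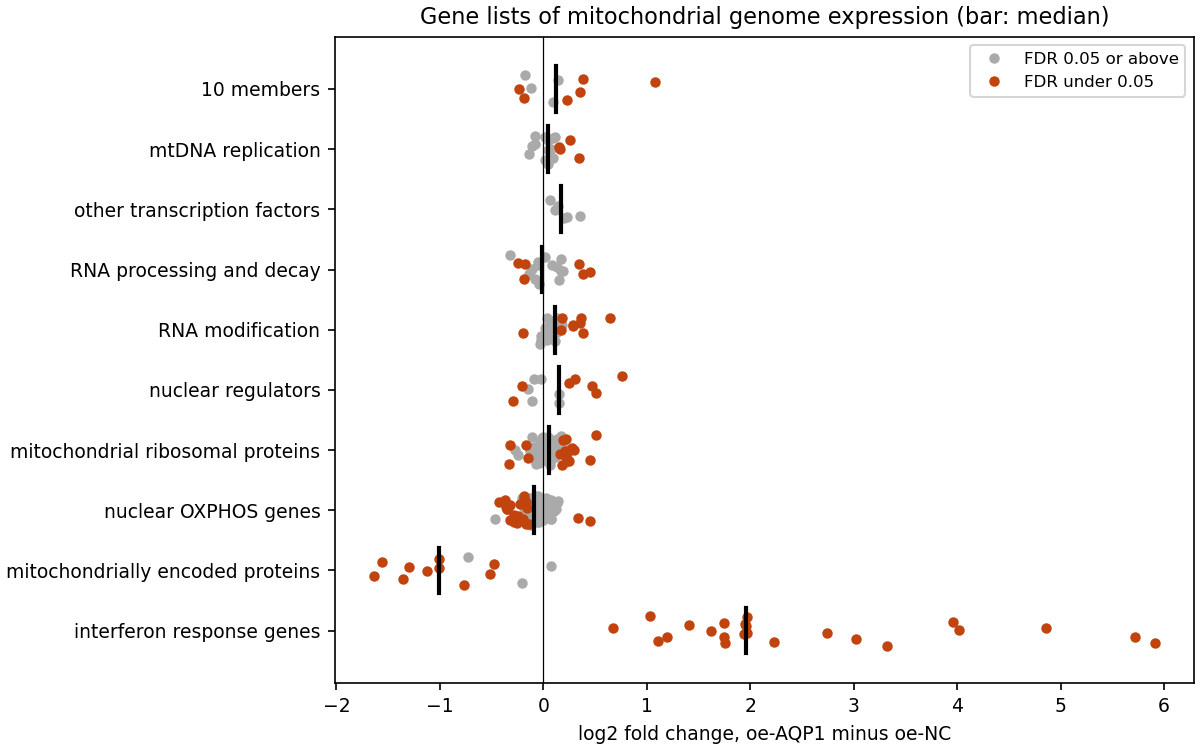
Log2 fold change, oe-AQP1 minus oe-NC, of each tested gene in 10 lists, with orange points for FDR under 0.05, grey points for the rest and a bar at the median of each list. The nuclear lists of mitochondrial gene expression centre between -0.09 and 0.17, the mitochondrially encoded protein genes at -1.01 and the interferon response genes at 1.96.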

How the data were processed

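RNA of 6 RENCA samples was sequenced by the authors as paired-end TruSeq libraries. The authors deposited expected counts per gene, some of them fractions, without scaling between samples. The paper names GRCm39. The submitters' processing notes name GRCm38 (mm10), fastp, HISAT2, featureCounts and Subread, and whole-read counting by featureCounts would not give fractions. Positions and lengths come from GENCODE M39 (GRCm39), which holds 78168 of the 78298 gene identifiers.

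Counts were rounded, filtered (edgeR 4.0.16 filterByExpr by group), TMM-scaled and tested with limma-voom (limma 3.58.1, R 4.3.3), the method of the study, with Benjamini-Hochberg adjustment over 15522 genes. In simulated counts (15225 genes), limma-voom called 75.3% of 89 genes changed by 1 log2 unit, 100% of 108 changed by 2, and 8 unchanged genes. The simulation changed far fewer genes than the 32.5% called in the data, and none of its samples stood apart. It held no change under 1 log2 unit, so it does not describe the recovery of smaller changes. TMM factors were 0.993 to 1.006. Tried as alternatives were the quasi-likelihood test of edgeR, DESeq2 1.42.0, quality weights, 4 other scalings, 2 other filters, no rounding, a sample-number block and leaving out each sample.

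The 10 genes and the lists were chosen with earlier results of these data known. From each list, up to 3 genes with the highest and 3 with the lowest log2 fold change were named among those at FDR under 0.05 and a mean of at least 1 CPM. The genes that overlap the 10, and the partners and regulators named without passing the test, were chosen for their position or role, some after their values were seen. The authors' group means and annotation columns were not used.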

Additional observations from a re-analysis of the deposited data

How the results depend on the processing

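The calls of Pnpt1, Slirp, Tefm, Tfam and Lrpprc kept their direction and stayed at FDR under 0.05 in all 17 alternatives, with log2 fold changes of 0.99 to 1.14, 0.29 to 0.43, 0.29 to 0.41, 0.18 to 0.28 and -0.26 to -0.23. The number of the 10 genes that rose was 4 in each alternative, edgeR and DESeq2 included. The number that fell was 1 with total counts and no further scaling, where Polg did not pass (log2 fold change -0.18, FDR = 0.0537), and 1 to 3 when 1 sample was left out. The number with an absolute log2 fold change above 1 was 0 to 1 when 1 sample was left out, with 0 without oe-NC sample 1. Polg passed in 13 of 17 alternatives and Tfb2m in 2. Polrmt turned sign without oe-NC sample 1 (0.0045), within a range of -0.20 to 0.0045. Over all genes, scaling by total counts gave 2666 higher and 2388 lower calls against 2481 and 2569, and leaving out 1 sample gave from 1856 higher and 1745 lower (without oe-AQP1 sample 2) to 3125 and 3331 (without oe-NC sample 1).

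Samples with the same number did not deviate together (correlations 0.01, 0.00 and -0.07), and not every sample correlated best with its own number. These values gave no sign that the numbers pair the samples. With 3 samples a group they cannot exclude it. With the replicate number as a block, 4 of the 10 genes rose and 2 fell, 1 with an absolute log2 fold change above 1, and 2346 and 2479 of all genes were called higher and lower. At 3 samples a group, the permutation test of a share or ratio cannot reach an exact p under 0.1, and the 95% intervals of Tfb1m, Twnk and Polrmt reach log2 fold changes of 0.34, 0.22 and -0.32. The number of mitochondrially encoded protein genes that fell was 10 to 11. The cause of these dependences was not tested.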

Other observations

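Genes for the machinery that uses the mitochondrial transcripts were read in the same samples. Of 77 mitochondrial ribosomal protein genes, 13 rose and 4 fell, with a median log2 fold change of 0.05. Over all genes 16% were called higher and 16.6% lower. Mrpl30 rose most (0.51, limma-voom FDR = 1.28e-04), followed by Mrpl22 (0.45) and Mrps2 (0.29), and Mrpl42 (-0.33), Mrpl18 (-0.32) and Mrpl11 (-0.16) fell. The number that fell was 2 to 12 over the alternatives, with 12 without oe-NC sample 1.

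Of 90 tested nuclear genes of oxidative phosphorylation, 2 rose and 22 fell, with a median of -0.09. Among those at FDR under 0.05 with a mean of at least 1 CPM, Atp5f1b was the lowest (-0.42, limma-voom FDR = 1.33e-06). It encodes the catalytic beta subunit of ATP synthase. Ndufb6, a complex I subunit (-0.37), and Sdha, the flavoprotein of complex II (-0.36), followed. Those that rose were Ndufaf1 (0.45), which is an assembly factor of complex I and not a subunit, and Ndufb1 (0.34). The number that fell was 15 to 60 over the alternatives, with 60 without oe-NC sample 1 and 53 with sample quality weights. Here too the background was 16% higher and 16.6% lower. Among the 8850 genes with a mean count at least as high as that of Tfb1m, it was 17.6% higher and 23.6% lower. The calls in this list are to be read against both shares.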
